A study of Homo sapiens with 8 samples.

Results

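The lysosome genes examined here are 42 named members of the deposited table of 38637 genes, taken by symbol and grouped by what their proteins do. They were chosen with earlier results of these data known, so shares of all genes are set beside theirs as a description only. They comprise 7 proteases, 8 glycosidases, 3 sulfatases, 3 lipid hydrolases, 9 membrane, transfer and activator proteins, and 12 genes of the proton pump (5 of the membrane sector V0, 6 of the cytosolic sector V1 and the accessory subunit ATP6AP1). RNA-seq was performed on SW1990, an established human pancreatic adenocarcinoma cell line, in 4 groups of 2 libraries. The labels name SW1990, while a figure legend of the study names SW1990-luc, the line labelled with luciferase. Vector libraries (2 and 3) came from cells with the empty vector, and EBF2-OE libraries (2 and 3) from cells overexpressing EBF2, a transcription factor. Vehicle libraries (1 and 2) came from mock-treated cells, and GSK-LSD1 libraries (1 and 2) from cells given an inhibitor of the histone demethylase KDM1A/LSD1, for which the labels state a dose of 2000 µM. This labelled dose lies above every dose named in the study's account of the compound on these cells, and its unit could not be checked. The question of the study was how transcription responds when EBF2 or the histone mark H3K4me1 is raised. No source used here says how long the cells were treated, whether EBF2-OE is a clone or a pool, or whether 2 libraries of a group came from separate cultures. The p-values therefore measure only the spread between these libraries.

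The lysosome is an acidic compartment in which proteases, glycosidases, sulfatases and lipases break down proteins, glycans and lipids delivered by endocytosis and autophagy. Acidity is kept by the V-ATPase, a rotary pump whose V1 sector hydrolyses ATP and whose V0 sector moves protons across the membrane. Heavily glycosylated proteins such as LAMP1 and LAMP2 line that membrane, while NPC1 and NPC2 pass cholesterol out of the lumen. Many of these genes share an E-box motif near their start site, known as the CLEAR element, through which the transcription factors TFEB and TFE3 can switch them on together.

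The sequences below are shown for the E-box letters that many lysosome genes carry beside the transcription start. RefSeq promoter windows of 300 bases (250 before and 50 after the start, build GRCh38.p14) were at hand for 28 of the 42 genes, in 41 windows. The letters CACGTG, which read the same on both strands, occurred in windows of 10 of these 28 genes, against 8.77% of the 27305 genes with a window. The longer letters TCACGTGA, which contain CACGTG, occurred in 6 of the 28, against 1.18% of all genes. LAMP1 held 5 of the shorter motif in the 250 bases before its start. Capitals mark CACGTG, or TCACGTGA where the match is complete, and all sequences run 5′ to 3′ on the gene's own strand.
LAMP1, chr13:113296989-113297238, + strand: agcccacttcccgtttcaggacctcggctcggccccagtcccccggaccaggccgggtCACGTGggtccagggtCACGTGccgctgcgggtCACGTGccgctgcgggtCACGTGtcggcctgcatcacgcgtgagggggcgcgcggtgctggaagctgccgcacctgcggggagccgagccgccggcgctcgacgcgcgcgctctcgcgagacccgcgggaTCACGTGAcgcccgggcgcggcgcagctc
CTSA, chr20:45891298-45891327, + strand: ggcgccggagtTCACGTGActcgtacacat
CTSD, chr11:1763957-1763986, - strand: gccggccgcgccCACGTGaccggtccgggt
GAA, chr17:80101493-80101522, + strand: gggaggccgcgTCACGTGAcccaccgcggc
NEU1, chr6:31862930-31862959, - strand: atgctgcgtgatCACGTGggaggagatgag
CD63, chr12:55729172-55729201, - strand: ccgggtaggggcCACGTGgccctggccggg
CLN3, chr16:28492087-28492116, - strand: aaaacctctgagCACGTGatgggggaacac
MCOLN1, chr19:7522571-7522600, + strand: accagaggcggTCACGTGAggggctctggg
ATP6V0B, chr1:43974909-43974938, + strand: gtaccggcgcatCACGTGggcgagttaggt
ATP6V0D1, chr16:67481199-67481228, - strand: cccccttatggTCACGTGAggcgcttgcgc

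A match of letters describes the sequence and shows neither binding nor use of the site. The start sites in these windows are those of RefSeq, and genes such as CD63 have several. The 14 members with no window were LAMP2, CTSB, HEXA, NAGLU, SGSH, MANBA, ARSA, ASAH1, PSAP, ATP6V0E1, ATP6V1A, ATP6V1B2, ATP6V1C1 and ATP6V1H.

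The libraries held between 20453362 and 27054876 counts on genes. EBF2 had 28 counts in each Vector library, 5818 in EBF2-OE 2 and 90100 in EBF2-OE 3, so the overexpressing libraries differed widely from each other. As markers of the labelled cell type, KRT7, KRT8, KRT18 and MUC1 were abundant in every library. KRT19 (0 to 21 counts), EPCAM (4 to 20) and CDH1 (7 to 57) were near absent, although they are usual markers of pancreatic epithelium. Levels between genes are given in TPM (a unit that corrects for gene length and depth), and differences between groups as fold changes of normalised counts. A member "passed" at an adjusted p under 0.05 by edgeR's quasi-likelihood test, adjusted over all genes tested by Benjamini-Hochberg. In bulk RNA, fewer expressing cells and less RNA per cell cannot be told apart.

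SW1990 cells expressed 41 of the 42 genes at 324 counts or more in every library. PSAP, the precursor of the saposins that activate sphingolipid breakdown, was the highest member, from 1026 TPM in Vector 2 to 1748 TPM in GSK-LSD1 2. Next by mean level came CTSD, CD63, CTSZ, ATP6V0C and CTSL, in which CD63 is a tetraspanin of late endosomes and the cathepsins D, Z and L are proteases. CTSH, an aminopeptidase, was the exception, with 0.276 to 0.641 TPM. Its counts were too few to test EBF2-OE against Vector. The summed level of all 42 genes was 5954 and 6318 TPM in Vector, 6029 and 6756 TPM in EBF2-OE, 6019 and 5916 TPM in Vehicle, and 7337 and 7628 TPM in GSK-LSD1. Only the GSK-LSD1 libraries stood above all others in this sum.

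**Figure D1:**
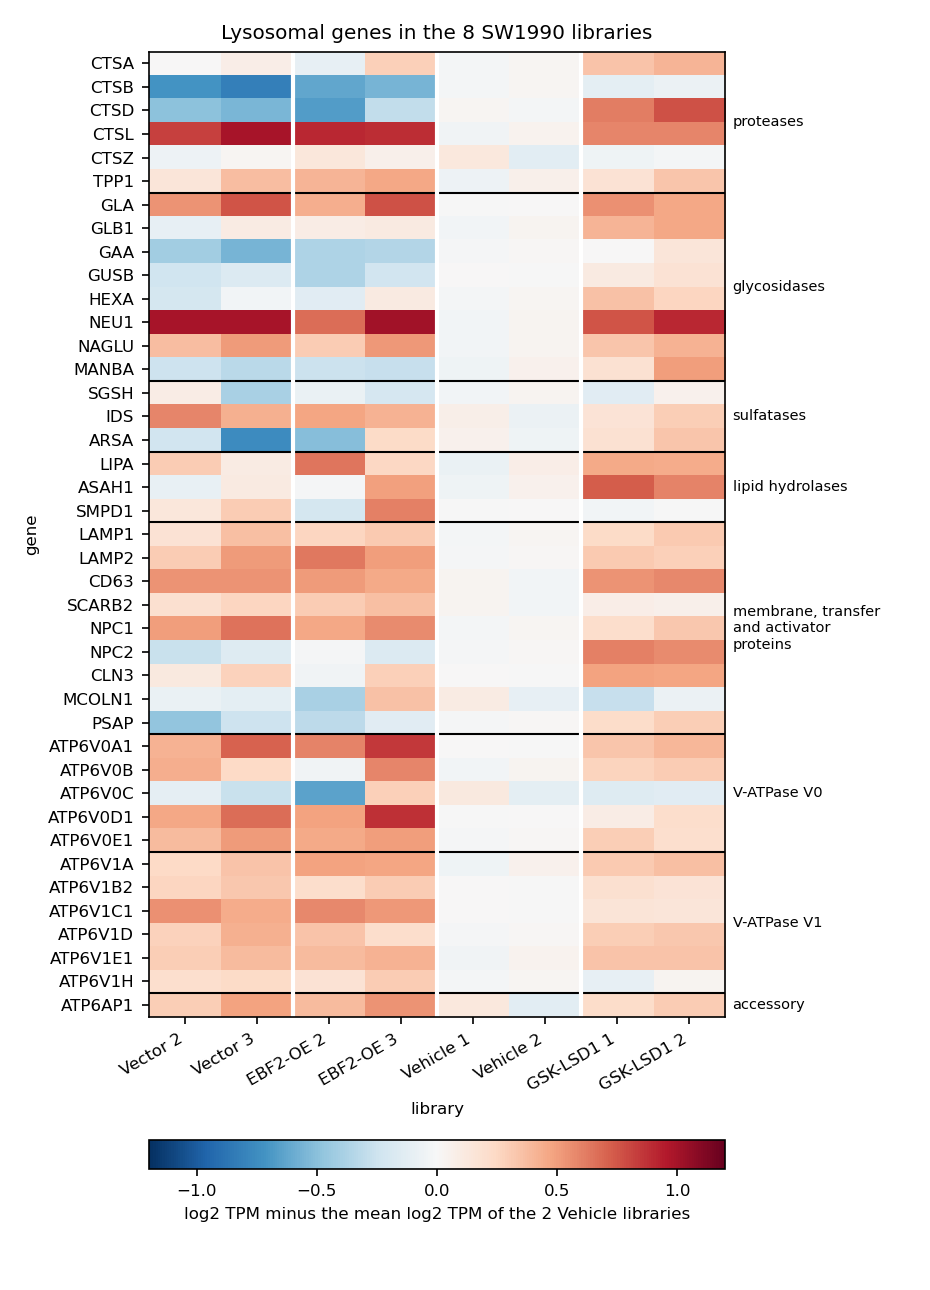
Level of 41 lysosome genes (rows, CTSH left out) in each of the 8 libraries (columns), as log2 TPM minus the mean log2 TPM of the 2 Vehicle libraries. Both GSK-LSD1 columns are red for most genes in every subgroup, while the Vector and EBF2-OE columns share a mixed pattern in which NEU1 and CTSL are high and CTSB is low.

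GSK-LSD1 against Vehicle asks which lysosome genes respond to the inhibitor. Of the 42 members, 29 rose and 0 fell. The members that rose came from every subgroup, with 4 of 7 proteases, 7 of 8 glycosidases, 1 of 3 sulfatases, 2 of 3 lipid hydrolases, 7 of 9 membrane, transfer and activator proteins, 3 of 5 V0 subunits, 4 of 6 V1 subunits and ATP6AP1. Over all 16059 genes tested, 9.86% passed as higher and 8.87% as lower. The median log2 fold change was 0.31 over the members and -0.01 over all genes. At an unadjusted p under 0.05 the counts were 32 higher and 0 lower, for which the share of all genes was not counted. DESeq2 gave 25 and 0, among 980 higher and 851 lower of 25498 genes. In a fit that estimated the spread from all 8 libraries, 5 members passed as higher (CTSD, CTSL, NEU1, CD63 and NPC2). In that fit 99 of 16558 genes passed as higher and 18 as lower, so calls fell over the whole table.

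The rises were small in size. With a fold change over 1.5 also required, 6 members were higher (CTSD, NEU1, CTSL, NPC2, CD63 and ASAH1) and 0 lower, against 2.53% and 2.04% of all genes. By normalised counts, both GSK-LSD1 libraries lay above both Vehicle libraries in 35 members and below both in 1, where 30% and 30.2% of all genes did so in the respective direction. That 1 member was CTSB.

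**Figure D2:**
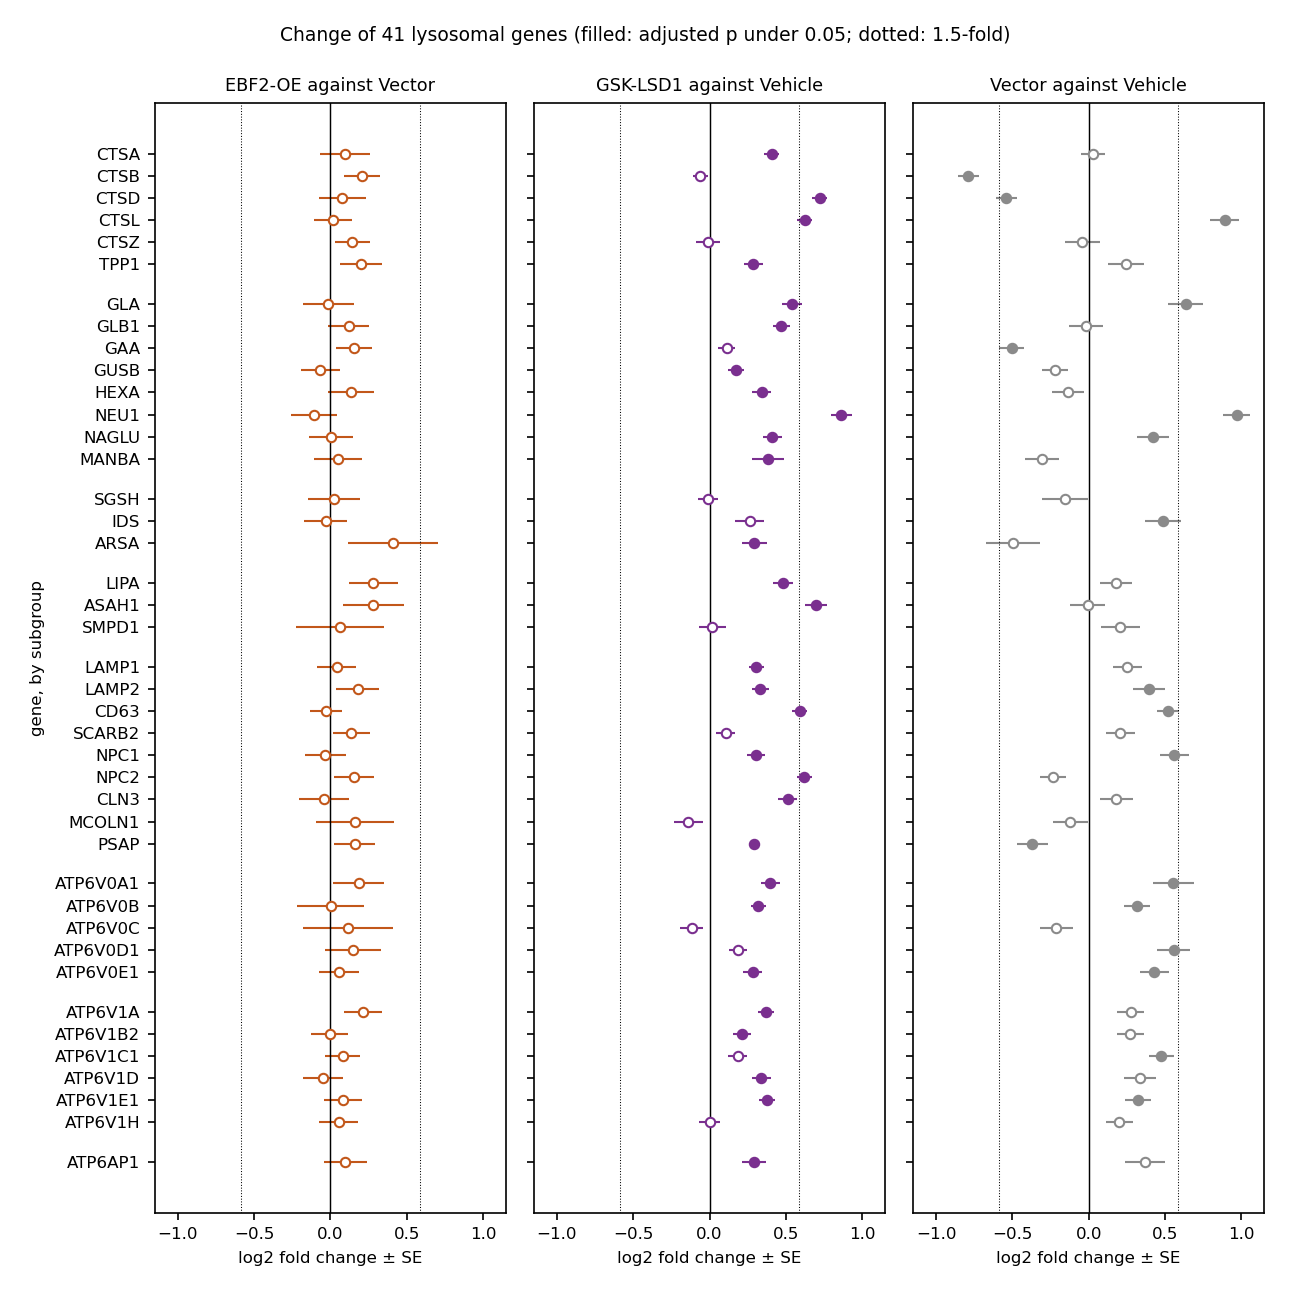
Log2 fold change (horizontal axis, ± standard error) of 41 lysosome genes in EBF2-OE against Vector, GSK-LSD1 against Vehicle and Vector against Vehicle, by subgroup; filled points passed an adjusted p under 0.05 and dotted lines mark 1.5-fold. In the middle panel 29 points are filled and all of them lie to the right of 0, the left panel has 0 filled points, and the right panel has filled points on both sides.

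Among the proteases, cathepsin D (CTSD, chr11:1752755-1763927), an aspartic protease, showed the clearest rise. It measured 634 and 613 TPM in Vehicle and 953 and 1056 TPM in GSK-LSD1, beside 444 and 426 TPM in Vector and 391 and 508 TPM in EBF2-OE. The GSK-LSD1 libraries lay apart from all 6 others. The fold change was 1.65 (log2 0.72, standard error or SE 0.051, edgeR adjusted p = 1.23e-05).

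Cathepsin L (CTSL, chr9:87726119-87731469), a cysteine protease, had 208 and 221 TPM in Vehicle and 323 and 322 TPM in GSK-LSD1. Its level was still higher in the other experiment, at 379 and 427 TPM in Vector and 402 and 398 TPM in EBF2-OE. The groups did not overlap between Vehicle and GSK-LSD1, with a 1.54-fold difference (log2 0.62, SE 0.050, edgeR adjusted p = 2.93e-05).

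CTSA, a carboxypeptidase that also shields NEU1 and GLB1 from degradation, went from 144 and 149 TPM in Vehicle to 185 and 193 TPM in GSK-LSD1 (1.33-fold, edgeR adjusted p = 0.00033). Vector had 147 and 155 TPM and EBF2-OE 137 and 178 TPM, so the EBF2-OE libraries lay on either side of their controls. CTSA overlaps NEURL2, PLTP and SPATA25 on the opposite strand, with 66.6, 139 and 112 mean counts against 4427 for CTSA. TPP1, a tripeptidyl peptidase, rose 1.22-fold (adjusted p = 0.0115), although not when GSK-LSD1 2 was left out (adjusted p = 0.113).

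Cathepsins B and Z did not follow. CTSB, a cysteine protease like CTSL, had 123 and 128 TPM in Vehicle against 116 and 119 TPM in GSK-LSD1. On the log2 scale it differed by -0.06 (SE 0.048, adjusted p = 0.426). CTSZ, a carboxypeptidase, had 479 and 402 TPM in Vehicle, 423 and 433 TPM in GSK-LSD1, 421 and 445 TPM in Vector and 481 and 458 TPM in EBF2-OE. For CTSZ the Vehicle libraries enclosed the GSK-LSD1 libraries, and they differed by -0.01 on the log2 scale (SE 0.078).

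Among the glycosidases 7 of 8 rose, and normalised counts of all 8 were higher in both GSK-LSD1 libraries than in either Vehicle library. NEU1 (chr6:31857659-31862821), the sialidase that trims sialic acid from glycoproteins, had the largest fold change of any member. It measured 24.7 and 25.9 TPM in Vehicle and 42.6 and 47.3 TPM in GSK-LSD1, a 1.82-fold rise (log2 0.86, SE 0.069, edgeR adjusted p = 2.75e-05). Vector had 50.2 TPM in both libraries and EBF2-OE 40.3 and 50.9 TPM, so Vehicle was the group that stood low.

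GLA, the alpha-galactosidase deficient in Fabry disease, showed the same order. Its level was 98.9 and 99.6 TPM in Vehicle, 145 and 137 TPM in GSK-LSD1, 144 and 167 TPM in Vector and 134 and 169 TPM in EBF2-OE. The difference between GSK-LSD1 and Vehicle was 1.46-fold (adjusted p = 0.000336). The span of RPL36A-HNRNPH2 overlaps that of GLA on the opposite strand, with a mean of 10292 counts against 1654 for GLA. Whether the 2 genes share reads is not known. Only gene spans and not exons were compared, and no strand setting is stated for the counting. Such an opposite-strand partner with at least 10 mean counts was listed for 7 members, here also SGSH, CTSA, LAMP1, CD63, NPC1 and ATP6V1E1.

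GLB1, the beta-galactosidase that cleaves gangliosides and keratan sulphate, had 47.5 and 49.6 TPM in Vehicle and 64.2 and 67.2 TPM in GSK-LSD1. Vector (45.3 and 51.9 TPM) and EBF2-OE (51.6 and 52.2 TPM) were near Vehicle, and the rise was 1.38-fold (adjusted p = 0.000369). NAGLU, which degrades heparan sulphate, measured 22.8 and 24.0 TPM in Vehicle, 29.5 and 31.3 TPM in GSK-LSD1, 30.2 and 33.3 TPM in Vector and 28.9 and 33.6 TPM in EBF2-OE. Its 1.33-fold rise under GSK-LSD1 (adjusted p = 0.00142) brought it to the range of the Vector libraries. HEXA, the alpha subunit of beta-hexosaminidase A, went from 37.9 and 39.2 TPM to 49.3 and 46.1 TPM (1.27-fold, adjusted p = 0.00366), beside 33.3 and 37.7 TPM in Vector and 35.0 and 41.5 TPM in EBF2-OE. HEXA missed the threshold without GSK-LSD1 1 (adjusted p = 0.0563).

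The glycosidases nearest the threshold by adjusted p were MANBA, a beta-mannosidase (1.30-fold, adjusted p = 0.0284), and GUSB, the beta-glucuronidase (1.13-fold, adjusted p = 0.0435). Neither passed with DESeq2 (adjusted p = 0.0662 and 0.149). GUSB is uncertain on another ground too, as 11 GUSB pseudogenes in the table, with 920.1 mean counts in sum, may share reads with it. GAA, the acid alpha-glucosidase of glycogen breakdown, differed by 0.11 on the log2 scale (SE 0.056, adjusted p = 0.195).

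Of the sulfatases, 1 of 3 passed. ARSA, which desulphates sulphatide, passed at 1.22-fold (adjusted p = 0.0301), but not by DESeq2 (adjusted p = 0.113) or in 3 of the 4 fits that left out a library. IDS, which removes sulphate from heparan and dermatan sulphate, had a log2 fold change of 0.26 (adjusted p = 0.0776) and SGSH, a heparan sulphamidase, one of -0.01 (adjusted p = 0.937). SGSH overlaps CARD14 and SLC26A11 on the opposite strand, with 2331 and 486.0 mean counts against 1814 for SGSH itself. The summed level of the 3 sulfatases was 47.9 to 48.4 TPM in Vehicle and 48.8 to 54.7 TPM in GSK-LSD1.

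Lipid hydrolases had the highest median log2 fold change of the subgroups with at least 3 members, 0.48. ASAH1, the acid ceramidase, measured 37.9 and 40.6 TPM in Vehicle, 65.0 and 59.4 TPM in GSK-LSD1, 36.8 and 42.2 TPM in Vector and 39.0 and 55.2 TPM in EBF2-OE. Both GSK-LSD1 libraries lay above all others, and the rise was 1.62-fold (log2 0.70, SE 0.071, edgeR adjusted p = 0.00012). LIPA, the acid lipase that frees cholesterol from its esters, had 43.1 and 48.2 TPM in Vehicle and 62.4 and 62.2 TPM in GSK-LSD1 (1.40-fold, adjusted p = 0.000667). In the other experiment LIPA had 56.3 and 48.7 TPM in Vector and 71.0 and 54.0 TPM in EBF2-OE. SMPD1, the acid sphingomyelinase, had 18.2 and 18.4 TPM in Vehicle and 17.9 and 18.3 TPM in GSK-LSD1, a log2 difference of 0.02 (SE 0.089).

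Among membrane and transfer proteins, NPC2 and CD63 moved most. NPC2 (chr14:74479935-74493512), the soluble carrier that hands cholesterol to NPC1, measured 284 and 289.9 TPM in Vehicle and 438 and 425 TPM in GSK-LSD1. Vector had 238 and 257 TPM and EBF2-OE 285 and 256 TPM, so the GSK-LSD1 libraries were apart from the other 6. The fold change was 1.54 (log2 0.62, SE 0.051, edgeR adjusted p = 3.2e-05).

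CD63 (chr12:55725323-55729673) went from 457 and 437 TPM in Vehicle to 649 and 667 TPM in GSK-LSD1, or 1.51-fold (log2 0.59, SE 0.049, edgeR adjusted p = 3.2e-05). Its level in Vector (648 and 649.5 TPM) and EBF2-OE (635 and 612 TPM) was similar to that under GSK-LSD1. CLN3, a membrane protein lost in juvenile Batten disease, had 28.6 and 28.5 TPM in Vehicle and 39.9 and 39.6 TPM in GSK-LSD1, with 31.0 and 34.6 TPM in Vector and 27.7 and 34.8 TPM in EBF2-OE. Its rise of 1.43-fold (adjusted p = 0.000369) exceeded the gap between libraries of each of the 2 groups.

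The structural proteins of the membrane rose less. LAMP1 had 241 and 249 TPM in Vehicle and 287 and 305 TPM in GSK-LSD1 (1.24-fold, adjusted p = 0.00168), beside 277 and 314 TPM in Vector and 292 and 304 TPM in EBF2-OE. LAMP2, which also takes part in chaperone-mediated autophagy, had 21.7 and 22.2 TPM in Vehicle, 27.2 and 26.7 TPM in GSK-LSD1, 27.2 and 31.2 TPM in Vector and 34.0 and 31.0 TPM in EBF2-OE (1.26-fold, adjusted p = 0.00229). For LAMP1 and LAMP2 the Vehicle libraries were the lowest of the 8. PSAP measured 1404 and 1437 TPM in Vehicle, 1656 and 1748 TPM in GSK-LSD1, 1026 and 1199 TPM in Vector and 1144 and 1292 TPM in EBF2-OE, and its rise was 1.23-fold (adjusted p = 0.000421). NPC1, the membrane partner of NPC2, passed at 1.23-fold (adjusted p = 0.00465), but missed without GSK-LSD1 2 (adjusted p = 0.0593).

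SCARB2, the receptor that carries glucocerebrosidase to the lysosome, had a log2 fold change of 0.11 (adjusted p = 0.291). MCOLN1, the cation channel TRPML1, had 41.2 and 36.0 TPM in Vehicle and 31.8 and 36.7 TPM in GSK-LSD1, a log2 difference of -0.14 (SE 0.096, adjusted p = 0.352).

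In the proton pump, 8 of 12 genes rose, by 1.16-fold to 1.32-fold. ATP6V0A1, the V0 subunit that forms the proton path, had 15.8 and 15.6 TPM in Vehicle, 19.8 and 20.6 TPM in GSK-LSD1, 21.0 and 25.7 TPM in Vector and 23.8 and 28.3 TPM in EBF2-OE (1.32-fold, adjusted p = 0.00174). ATP6V0B, of the proteolipid ring, had 127 and 133 TPM in Vehicle, 156 and 161 TPM in GSK-LSD1, 175 and 153 TPM in Vector and 126 and 195 TPM in EBF2-OE (1.25-fold, adjusted p = 0.00212). Vehicle was lowest for ATP6V0A1, whereas EBF2-OE 2 reached down to the Vehicle level for ATP6V0B.

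ATP6V0C, the other proteolipid subunit listed and the most abundant pump gene, showed no rise. It had 427 and 362 TPM in Vehicle and 353 and 359 TPM in GSK-LSD1, a log2 difference of -0.12 (SE 0.076, adjusted p = 0.325). Without Vehicle 2 it passed as lower (log2 -0.25, edgeR adjusted p = 0.00362), the only member to do so under any alternative. ATP6V0E1 passed at 1.22-fold (adjusted p = 0.00973), and ATP6V0D1, which links V0 to the rotor, narrowly missed at 1.14-fold (adjusted p = 0.0552).

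Of the V1 sector, ATP6V1A, the catalytic subunit, measured 46.4 and 49.6 TPM in Vehicle, 59.5 and 61.8 TPM in GSK-LSD1, 56.7 and 60.8 TPM in Vector and 67.0 and 66.8 TPM in EBF2-OE (1.29-fold, adjusted p = 0.00107). ATP6V1E1, a stator subunit, measured 166 and 175 TPM in Vehicle, 215 and 216 TPM in GSK-LSD1, 209 and 222 TPM in Vector and 221 and 227 TPM in EBF2-OE (1.30-fold, adjusted p = 0.000835). In both genes Vehicle was below the other 6 libraries. ATP6V1D passed at 1.26-fold (adjusted p = 0.00403) and ATP6V1B2 at 1.16-fold (adjusted p = 0.030), the latter not with DESeq2. ATP6V1C1 had a log2 fold change of 0.18 (adjusted p = 0.0615), and ATP6V1H, which regulates the pump, one of 0.00 (SE 0.068). The accessory subunit ATP6AP1 passed at 1.23-fold (adjusted p = 0.0243), although in only 1 of the 4 fits that left out a library.

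By summed TPM, the subgroups differed in how far GSK-LSD1 exceeded Vehicle. The ratio of means was 1.38 for lipid hydrolases, 1.33 for proteases, 1.28 for membrane, transfer and activator proteins and 1.27 for glycosidases. For the V1 sector it was 1.21, against 1.08 for sulfatases and 1.04 for the V0 sector, whose sum is dominated by ATP6V0C. The sums are weighted to the most abundant genes, and no test between subgroups was made.

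**Figure D3:**
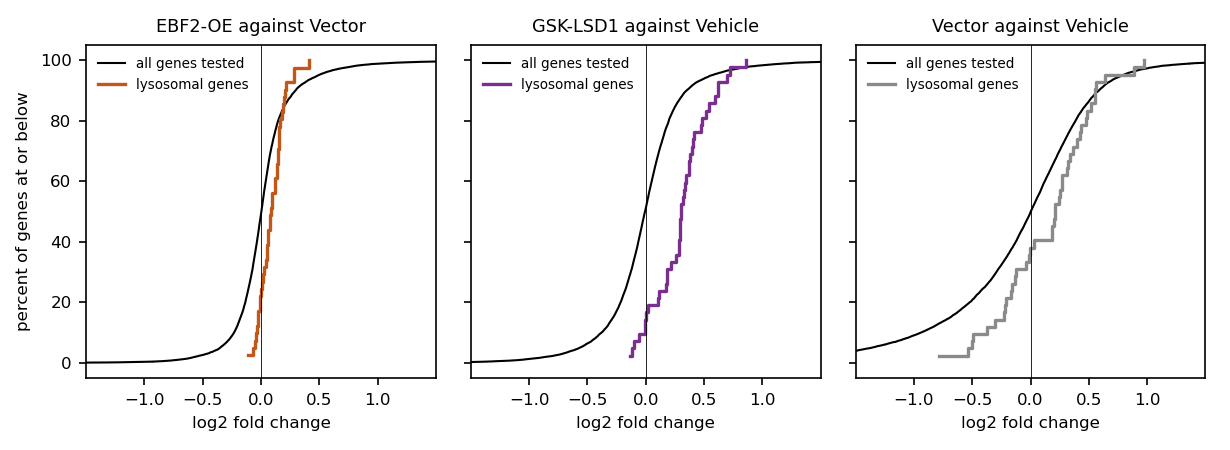
Cumulative distribution of log2 fold changes (horizontal axis; percent of genes at or below on the vertical axis) for the lysosome genes in colour and all genes tested in black, in each comparison. For GSK-LSD1 against Vehicle the coloured line is shifted to the right of the black one, with medians of 0.31 and -0.01. For Vector against Vehicle the medians are 0.21 and 0.00, and for EBF2-OE against Vector 0.08 and 0.00.

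The E-box letters shown above were set beside these changes as a description. Of the 10 members with CACGTG in a window, 7 rose under GSK-LSD1, and the log2 fold changes had a median of 0.36. Of the 18 members with a window but without the letters, 12 rose, with a median of 0.30. CTSL, NPC2, GLA and LIPA rose without the letters in their windows, whereas GAA, MCOLN1 and ATP6V0D1 carried them and did not pass.

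Other genes of the pathway were followed as 95 genes in 7 lists, also chosen with earlier results known, of which 88 could be tested. With GSK-LSD1, 32 of them were higher and 3 lower, against 9.86% and 8.87% of all genes. Their median log2 fold change was 0.16, against -0.01 over all genes. By list, 11 of 27 further hydrolases were higher and 1 lower, and 3 of 14 further membrane proteins, 5 of 11 further pump subunits, 4 of 11 delivery genes and 6 of 13 genes of nutrient signalling were higher with 0 lower. Of 9 autophagy genes 3 were higher and 2 lower, and of the 3 MiT/TFE factors tested (TFEB, TFE3 and MITF) 0 passed. For TFEB the Vehicle libraries held 821 and 815 counts and the GSK-LSD1 libraries 673 and 725 (log2 difference -0.03 after scaling). Among the strongest by adjusted p were SORT1, a receptor that sorts hydrolases (log2 fold change 0.69), ATP6V1C2 (0.57), the sialic acid exporter SLC17A5 (0.65), DNASE2 (0.47), the carboxypeptidase SCPEP1 (0.54), the channel TPCN1 (0.38) and ATP6V0E2 (0.63). The 3 that were lower were CTSF (log2 fold change -0.31), ULK1 (-0.32), a kinase that starts autophagy, and GABARAPL1 (-0.26).

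Markers of other cell types were measured beside this shift, and their part in it was not tested. Of the 6 macrophage markers, PTPRC, CD14, TYROBP and CD163 had at most 21 counts in any library, and CD163 was at 0 in the 4 Vehicle and GSK-LSD1 libraries. The summed level of the macrophage list was 13.4 to 16.3 TPM in Vehicle and 19.5 to 21.3 TPM in GSK-LSD1, most of it CD68, itself a protein of late endosomes and lysosomes. The 7 epithelial markers summed to 7119 to 7231 TPM in Vehicle and to 5317 to 5360 TPM in GSK-LSD1. Fibroblast markers summed to 54.8 to 55.8 TPM against 59.9 to 62.4 TPM, and endothelial markers to 4.88 to 5.02 TPM against 2.63 to 2.79 TPM.

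EBF2-OE against Vector asks whether the same genes respond to EBF2. Of the 41 members tested, 0 rose and 0 fell by edgeR. At an unadjusted p under 0.05 the counts were also 0 and 0, as they were by DESeq2. Over all 15560 genes tested, 0% passed in either direction, and 0.945% were higher and 0.392% lower at the unadjusted threshold. EBF2 itself thus did not pass by edgeR, although its counts were far higher in both EBF2-OE libraries. The counts of 0 among the members therefore do not show that they fail to respond to EBF2. The smallest unadjusted p among the members was 0.127 for CTSB, at a log2 difference of 0.21 (SE 0.12). Standard errors of the members lay between 0.11 and 0.30 on the log2 scale (CTSH left out), where those of GSK-LSD1 against Vehicle lay between 0.036 and 0.10.

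The EBF2-OE libraries disagreed in many members. In 13 of 41 members (CTSH left out) they lay over 1.2-fold apart, against 3 members in Vector, 0 in Vehicle and 1 in GSK-LSD1. The share of all genes past this limit was not counted. Over the whole table, the spread between libraries was measured as chi-square per degree of freedom. It was 32.9 in EBF2-OE, 25.6 in Vector, 6.23 in Vehicle and 5.34 in GSK-LSD1. Being another measure, it cannot show whether the disagreement past 1.2-fold was particular to the members. ATP6V0C had 252 TPM in EBF2-OE 2 and 480.5 TPM in EBF2-OE 3, around 364 and 328 TPM in Vector. SMPD1 (15.7 and 27.9 TPM), ARSA (11.4 and 19.1 TPM) and MCOLN1 (29.4 and 49.3 TPM) were lower in EBF2-OE 2 in the same way, with Vector in between for SMPD1 and MCOLN1. EBF2-OE 2 was higher than EBF2-OE 3 for LIPA (71.0 against 54.0 TPM).

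Fold changes of the members were above 0 in 32 of 41, with a median log2 of 0.08 against 0.00 over all genes. Without EBF2-OE 3 this median was 0.00, and without Vector 3 it was 0.15. Both EBF2-OE libraries lay above both Vector libraries in 11 members and below both in 0, where 12.1% and 10.8% of all genes did so. The 11 were CTSB, CTSZ, TPP1, GAA, MANBA, LIPA, LAMP2, SCARB2, NPC2, ATP6V1A and ATP6V1C1, and 0 of them passed. Among the 87 other pathway genes tested, 0 passed in this comparison.

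Whether the members differed in their response between the experiments was tested as (EBF2-OE minus Vector) minus (GSK-LSD1 minus Vehicle) over all 8 libraries. By edgeR with the low-count filter 0 of 42 members passed in either direction, as did 0% of 16558 genes. At an unadjusted p under 0.05, 1 member was higher (CTSB) and 12 were lower, where 3.39% and 4.27% of all genes were higher and lower. DESeq2 gave 0 higher and 3 lower, among 38 higher and 56 lower of 27234 genes. The 3 were NEU1 (log2 -0.98, DESeq2 adjusted p = 0.00161), CD63 (log2 -0.63, adjusted p = 0.00922) and CTSL (log2 -0.62, adjusted p = 0.0494). By edgeR the adjusted p of these was 0.131 for NEU1, 0.128 for CD63 and 0.237 for CTSL. Without the low-count filter, edgeR gave 4 lower, these 3 and CTSD (log2 -0.65, adjusted p = 0.00121), among 205 higher and 185 lower of 27234 genes. Whether these members respond differently in the experiments thus depended on the tool and the filter.

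The controls of both experiments were compared last, since Vector and Vehicle cells differ in experiment as well as in the vector, and these cannot be told apart. Of the 42 members, 14 were higher in Vector and 4 lower, against 13.6% and 13.2% of all 16019 genes tested. The median log2 fold change was 0.21 over the members and 0.00 over all genes. It was 0.43 for V0 and 0.30 for V1, where GSK-LSD1 against Vehicle had 0.28 for each. The higher members included NEU1 (log2 0.97), CTSL (0.89), GLA (0.63), NPC1 (0.56), CD63 (0.52) and IDS (0.49). In the pump, 4 of 5 V0 subunits and 2 of 6 V1 subunits were higher, led by ATP6V0D1 (0.56), ATP6V0A1 (0.56) and ATP6V1C1 (0.48). The 4 lower members were CTSB (log2 -0.79), CTSD (-0.54), GAA (-0.51) and PSAP (-0.37). Among the 88 other pathway genes tested, 18 were higher in Vector and 9 lower, with a median log2 fold change of 0.10. Epithelial markers summed to 4622 to 4952 TPM in Vector against 7119 to 7231 TPM in Vehicle. Macrophage markers summed to 24.9 to 31.1 against 13.4 to 16.3 TPM and endothelial markers to 0.717 to 0.798 against 4.88 to 5.02 TPM. Fibroblast markers were at 49.8 to 54.8 against 54.8 to 55.8 TPM, and the part of these markers was not tested.

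This comparison shares its Vehicle libraries with GSK-LSD1 against Vehicle, so the values are only set side by side. NEU1, CTSL, GLA, CD63, NAGLU, LAMP2, NPC1, ATP6V0A1, ATP6V0B, ATP6V0E1 and ATP6V1E1 passed as higher than Vehicle in both. Of the 14 members higher in Vector, only IDS, ATP6V0D1 and ATP6V1C1 did not pass under GSK-LSD1. The share of all genes that passed in both was not counted. CTSD and PSAP were higher in GSK-LSD1 and lower in Vector, and CTSB was lower in Vector, at 76.3 and 71.2 TPM, while it did not pass under GSK-LSD1. Of the proteases 1 was higher and 2 lower in Vector, and of the glycosidases 3 and 1. The calls depended on the libraries over the whole table. Without Vehicle 1, 0 members and 12 of 16629 genes passed in either direction, and without Vehicle 2, 0 members and 235 of 16641 genes. The sizes moved little, with log2 fold changes of 0.95 and 0.99 for NEU1 and of -0.80 and -0.78 for CTSB in these 2 fits. Without Vector 2, 24 members were higher, among 4156 of 16827 genes, and without Vector 3, 7 were lower, among 3181 of 16762 genes.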

How the data were processed

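Poly(A)-selected RNA of SW1990 cells was sequenced with paired ends, and alignment by the authors used HISAT2 on hg38 with counting per gene by HTSeq; the strand setting is not given in the sources used here. The authors deposited raw counts of 38637 genes with gene length and TPM, and the deposited TPM was checked to follow from the count and length. Totals of 20453362 to 27054876 counts limit the precision of low genes such as CTSH. Groups were read from the labels.

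Counts were tested with edgeR 4.0.16 (quasi-likelihood test, TMM, filterByExpr with a minimum count of 10) in R 4.3.3, each comparison on its own 4 libraries and the difference between comparisons on all 8, two-sided with Benjamini-Hochberg adjustment over all genes tested. The standard error was taken from the test statistic. The members, subgroups and further lists were chosen with earlier results of these data known. Named in full were the up to 20 members with the smallest adjusted p below 0.05 and the 6 with the highest mean TPM. Alternatives used DESeq2 1.42.0, other scalings, filters and thresholds, 1 fit over all libraries, the replicate number as a block, and each library left out. The scripts were tested on simulated data. Promoter windows came from RefSeq. Figures were drawn with matplotlib 3.10.9 in Python 3.11.15. The value of 1 further gene of the pathway lists is not reported here.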

Additional observations from a re-analysis of the deposited data

How the results depend on the processing

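Of the 29 members higher with GSK-LSD1, 20 passed in every alternative on the 4 libraries of that comparison, and 5 (CTSD, CTSL, NEU1, CD63 and NPC2) passed also in 1 fit over all 8 libraries, which left 5 members higher in total. The share of all genes that passed in every alternative was not counted. The count was 6 with a fold change above 1.5, against 2.53% of all genes. With each library left out, the median log2 fold change was 0.28 to 0.33 over the members and -0.01 to 0.00 over all genes. The fit over all 8 libraries had 99 of 16558 genes higher with GSK-LSD1. With the replicate number as a block, 28 members were higher with GSK-LSD1, among 1443 of 16059 genes. In EBF2-OE against Vector the block gave 0 members higher, among 4 of 15560 genes. Same-numbered libraries deviated together with a correlation of 0.35 in EBF2-OE and Vector and -0.01 in GSK-LSD1 and Vehicle, over 2 pairs each, so the numbers do not establish pairs. In the comparison of Vector with Vehicle, which share only 1 number so that no paired fit could be made, the count higher was 0 to 24 and the count lower 0 to 7 with each library left out. These counts were 3 and 1 with the fold limit, and the count lower was 8 at unadjusted p, for which the shares of all genes were not counted. For the difference between comparisons, the count lower was 3 by DESeq2, 4 without a low-count filter (CTSD joining NEU1, CD63 and CTSL) and 12 at unadjusted p, and the count higher 1 at unadjusted p. Of all 27234 genes, 56 were lower by DESeq2 and 185 without the filter. The cause of these shifts was not tested. No member called in a comparison changed sign under any alternative run. With 1 library left in a group, that library was assumed to vary like the others.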
